A study of Homo sapiens with 24 samples.

Results

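Cytosolic ribosomal protein genes are described here in 2 human osteosarcoma cell lines treated with THZ2. Members are the genes whose symbol is RPL or RPS followed by a number, with the usual letter endings and the stalk proteins RPLP1 and RPLP2, and whose probe sets carry that symbol alone; kinases, L-like paralogs and pseudogenes do not count. The rule found 172 of 49372 probe sets, which stand for 65 of 18132 genes, 41 of the large (60S) subunit and 24 of the small (40S) subunit. All 65 genes and 170 of their probe sets passed the filter on dim values, and the levels of 1 further member among the 65 are not given. Some other symbols of the family, among them RPLP0, RPSA and RPS27A, were not analysed here.

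Ribosomal proteins assemble with ribosomal RNA in the nucleolus into the subunits that translate mRNA. Their mRNAs are abundant and long lived in growing cells, begin with a run of pyrimidines (the terminal oligopyrimidine, or TOP, tract) through which mTOR signalling and the protein LARP1 control their translation, and many of their introns carry small nucleolar RNAs that guide the modification of ribosomal RNA. THZ2 binds covalently to CDK7 and blocks it; this kinase, a part of TFIIH, phosphorylates the tail of RNA polymerase II as transcription starts.

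U2-OS and SJSA-1 are established human osteosarcoma lines, cultured in the same medium. Each line received DMSO alone, 25, 100 or 400 nM THZ2 for 6 h, with 3 Affymetrix PrimeView arrays per group and 24 arrays in all. The labels do not say whether the 3 arrays of a group are separate cultures, so p-values measure the spread between these arrays, which may be technical. The labels' extraction protocol names another tissue and kit than the treatment protocol, so markers were read first. Levels of SPARC (2690 to 4699 as group means) and VIM (6608 to 8464), both typical of mesenchymal and bone cells, were high in all 8 groups, whereas AQP4 of astrocytes (4.09 to 7.28) and PTPRC of blood cells (3.39 to 6.51) lay under the filter of 12.73. Other genes of the same marker lists lay above it in all groups: GFAP (35.7 to 96.3), SNAP25 (33.0 to 85.8) and SLC17A7 (20.8 to 40.7) of nervous tissue, and HBB (48.2 to 90.1) and CD68 (47.3 to 78.9) of blood. The bone matrix gene IBSP lay under that filter in all groups, and the neuronal NEFL stood at 418 in U2-OS with DMSO and 2.85 in SJSA-1 with DMSO.

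The deposited values fall into 3 sets that appear to have been normalized apart: U2-OS with DMSO, 25 or 100 nM, U2-OS with 400 nM, and SJSA-1. Pairs of arrays within a set shared between 0.853% and 5.47% of their values exactly, and pairs across sets at most 0.00405%. All SJSA-1 values are whole hundredths on the log2 scale (3.47% to 4.06% of values on U2-OS arrays), which alone makes equal values among SJSA-1 arrays, so that these form 1 set is assumed. The effect of 400 nM in U2-OS and its normalization set therefore cannot be told apart, and levels are not compared between the lines. In RNA from whole cultures, fewer cells and less RNA per cell cannot be told apart either, and every value is relative to the other RNAs on its array.

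The starts of 9 members are shown because their transcripts carry, or lack, the sequence by which the family is known. Each line gives 15 bases before and 15 bases from the RefSeq transcript start in GRCh38.p14, 5′ to 3′ on the gene's strand. Capitals mark the tract, a C followed by pyrimidines without a break from the start. The windows are RPL13A (chr19:49487593-49487622, plus strand), RPL13 (chr16:89560667-89560696, plus), RPL27A (chr11:8682777-8682806, plus), RPL37A (chr2:216498829-216498858, plus), RPL35A (chr3:197950175-197950204, plus), RPS6 (chr9:19380222-19380251, minus), RPL34 (chr4:108620561-108620590, plus), RPL12 (chr9:127451392-127451421, minus) and RPS4X (chrX:72277234-72277263, minus), the last being a window with no tract at its annotated start.
RPL13A: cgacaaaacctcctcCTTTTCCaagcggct
RPL13: ttgcggggccgcttcCTTTCCgctcggctg
RPL27A: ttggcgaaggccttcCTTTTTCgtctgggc
RPL37A: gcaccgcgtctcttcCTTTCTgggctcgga
RPL35A: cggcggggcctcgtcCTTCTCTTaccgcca
RPS6: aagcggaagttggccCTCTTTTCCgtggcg
RPL34: aaaggcttttttcttCCTCTTCCggggacg
RPL12: ccgcgcgatttccggCCTCTCggctttcgg
RPS4X: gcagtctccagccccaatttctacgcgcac

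Of the 65 members, 55 had a start window in the RefSeq table, in 66 windows. A tract of a C and at least 4 pyrimidines stood at the annotated start in 42 of the 66 windows, against 4.07% of 35116 windows of all genes. In the 300 bases from 250 before to 50 after the start, read on both strands, CCGGAAG (the core letters bound by ETS factors such as GABPA) was found in 25 of 66 member windows and 10.3% of all windows. AAGATGGC (core letters of the YY1 motif) was found in 6 member windows and 2.89% of all windows, and TATAAA, the core letters bound by TBP, in 4 member windows and 11.5% of all windows. A match is a description of the letters in the window, and says nothing of binding.

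The members' probe sets were among the brightest of the array. For 58 members the mean intensity over 24 arrays was at least 4000, and 58 to 61 members lay in the top 1% of probe sets on every array. Intensity depends on the probes as well as on the transcript, so members are not ranked by abundance. Probe sets of RPS2, RPL32 and RPL37A were brightest, with means of 11824, 11594 and 10364, and those of RPL27A, RPL36 and RPL35A dimmest, with means of 146, 1108 and 1687. Near the top of the range the members also varied little: the median standard error of a log2 change was 0.038 over the members and 0.084 over all 16173 genes tested.

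Neither RPL5 nor RPL11 passed the test at 100 nM. Both proteins carry 5S ribosomal RNA and bind MDM2, the ubiquitin ligase of p53. The intensity of RPL5 was 5213 ± 103 (SD, n = 3) with DMSO and 5244 ± 172 with 100 nM in U2-OS, and 5545 ± 647 and 5620.4 ± 447 in SJSA-1. RPL11 stood at 8269 ± 132 and 8519.6 ± 82.2 in U2-OS, and at 8007 ± 222 and 8288 ± 120.0 in SJSA-1. The log2 changes in U2-OS and SJSA-1 were 0.0083 and 0.023 for RPL5 and 0.043 and 0.050 for RPL11, with limma adjusted p between 0.183 and 0.918. RPS19, the first gene found mutated in Diamond-Blackfan anaemia, stood at 6863 ± 42.1 and 7218 ± 245 in U2-OS (adjusted p = 0.123) and at 10136 ± 343 and 10491 ± 223 in SJSA-1 (adjusted p = 0.273). Not every member that binds MDM2 was listed. Of 4 that were listed (RPL5, RPL11, RPL23 and RPS7), RPS7 alone rose and none fell with 100 nM in SJSA-1. There 24.5% of all genes rose and 24.9% fell. With 400 nM in that line 1 of the 4 rose and none fell, beside 41.6% and 24.9% of all genes. None of the 4 passed in U2-OS with 100 nM (19.8% of all genes rose and 22.1% fell) or 400 nM (48.4% and 24.8%).

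With 1 probe set per gene, a smaller share of members than of all genes changed at 100 nM. The shares were 3.08% and 41.9% in U2-OS, and 18.5% and 49.4% in SJSA-1. At 25 nM THZ2 no member changed in U2-OS (limma, adjusted p under 0.05; none at an unadjusted p under 0.05 either), where 0.0247% of all genes rose and 0.0556% fell. With 25 nM in SJSA-1, 1 of 65 members fell and none rose, where 6.18% of all genes fell and 1.997% rose. At 100 nM in U2-OS, 2 members fell and none rose (6 rose at an unadjusted p under 0.05), where 22.1% of all genes fell and 19.8% rose. In SJSA-1 at 100 nM, 11 members rose and 1 fell, beside 24.5% of all genes risen and 24.9% fallen. The median log2 change of the members was 0.024 in U2-OS and 0.040 in SJSA-1 at 100 nM, and that of all genes 0.058 and 0.057.

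At 400 nM more members passed the test. In SJSA-1 25 of 65 members rose and none fell (also none at an unadjusted p under 0.05), where 41.6% of all genes rose and 24.9% fell. In U2-OS 26 members rose and 7 fell, where 48.4% of all genes rose and 24.8% fell, in the group normalized apart. The median log2 change of the members was 0.083 in SJSA-1 and 0.055 in U2-OS, and no member moved by 1 or more at any dose, against 1371 genes in SJSA-1 and 1557 in U2-OS at 400 nM. Of the 25 and 26 risen members 13 rose in both lines, which is 52% and 50% of the 2 lists. Both subunits were among them: RPL10A, RPL12, RPL18, RPL21, RPL23A, RPL27, RPL34 and RPL38 of the 60S subunit, and RPS15, RPS20, RPS24, RPS27 and RPS28 of the 40S subunit. The share of all genes that rose in both lines was not counted, so this overlap is not read as a trait of the members. The U2-OS list also depended on the scaling, with 3 risen on arrays centred on their median and 4 after quantile normalization. Shares of all genes risen under these scalings are not given.

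**Figure D1:**
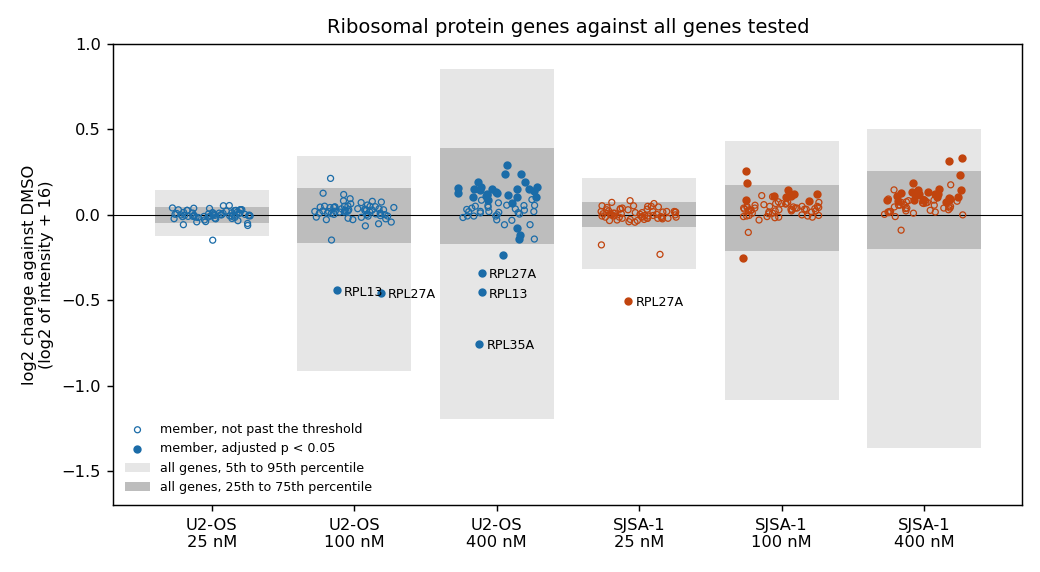
Log2 change of each member (points; filled where the limma adjusted p is under 0.05, open otherwise) for 3 doses against DMSO in each line, over grey bars for the 5th to 95th and the 25th to 75th percentile of all 16173 genes tested. The members keep close to 0 while the spread of all genes widens with dose; the deposited scaling is shown, and centring on spike-in RNAs turns the members' medians negative at 100 and 400 nM, as median centring and quantile normalization do in U2-OS at 400 nM.

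The direction of these small shifts depended on the scaling. The array holds 12 probe sets for the poly-A RNAs dap, lys, phe and thr, which are added to samples before labelling (spike-ins). Several of these sets read the same RNA, and the labels do not say whether equal amounts were used. Their mean log2 intensity was 5.61 ± 0.030 with DMSO and 6.11 ± 0.031 with 100 nM in U2-OS, and 6.96 ± 0.40 and 7.50 ± 0.086 in SJSA-1, rising to 8.05 ± 0.86 at 400 nM. Centred on the spike-ins, the members' median log2 change was -0.48 in U2-OS and -0.50 in SJSA-1 at 100 nM, and -1.004 in SJSA-1 at 400 nM. All genes shifted with them, to medians of -0.33, -0.23 and -0.51. With arrays centred on their median the members' medians were 0.039, 0.11 and 0.18. In U2-OS at 400 nM the members' median was 0.055 as deposited, -0.050 with arrays centred on their median, -0.028 after quantile normalization and -0.37 on the spike-ins.

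The split of members risen and fallen moved with it. At 100 nM in SJSA-1 it was 11 to 1 as deposited, 47 to 1 with arrays centred on their median, 4 to 1 after quantile normalization and 0 to 2 on the spike-ins. At 400 nM in SJSA-1 it was 25 to 0, 63 to 0, 11 to 1 and 0 to 65 in the same order, and at 400 nM in U2-OS 26 to 7, 3 to 17, 4 to 14 and 0 to 3. The risen count in SJSA-1 at 100 nM fell to 4 without replicate 1 or replicate 3 of that group, to 6 without replicate 2, and to 7 and 5 without DMSO replicates 1 and 2. At 400 nM it was 13 without DMSO replicate 2, and 15 and 14 without 400 nM replicates 1 and 2. Fitted to the 12 SJSA-1 arrays alone, 1 member rose at 100 nM and 10 rose at 400 nM. Fitted to the 12 U2-OS arrays alone, 10 members rose and 4 fell at 100 nM, in place of 0 and 2. The main fit shares 1 estimate of each gene's spread between both lines. Shares of all genes called in the other settings are not given, so these counts are not read as a trait of the members. With arrays centred on their median, the median log2 change of all genes was 0.10 and 0.17 in SJSA-1 at 100 and 400 nM. In U2-OS at 400 nM it was 0.072.

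**Figure D2:**
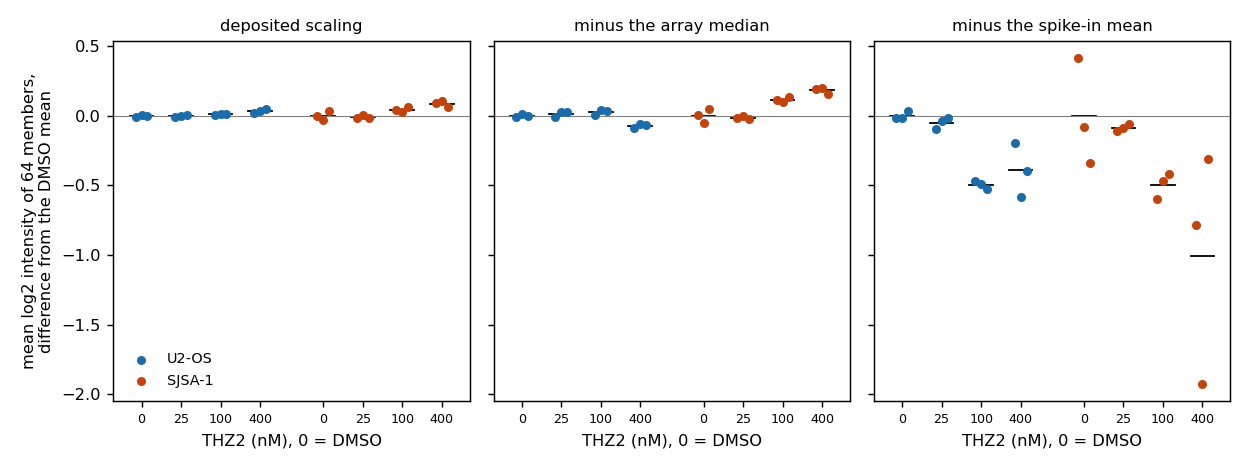
Mean log2 intensity of 64 members on each array minus the mean of the DMSO arrays of its line, as deposited, minus the median of the array, and minus the mean of the spike-ins (points are arrays, in the order of dose). As deposited the members stay near 0, and against the spike-ins they lie below DMSO at 100 nM in both lines.

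The members took a share of 8.87% ± 0.035 of the summed gene intensity in U2-OS with DMSO, 8.80% ± 0.037 at 25 nM and 9.33% ± 0.077 at 100 nM. At 400 nM in U2-OS, the group normalized apart, the share was 8.61% ± 0.115, below that with DMSO. In SJSA-1 the share was 11.3% ± 0.20 with DMSO, 11.4% ± 0.13 at 25 nM, 11.9% ± 0.25 at 100 nM and 12.1% ± 0.079 at 400 nM. The share weights bright probe sets most, and with 3 arrays a side the smallest two-sided p of an exact permutation test is 0.1.

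As deposited, most members had narrow intervals. The 95% interval of the log2 change lay within 0.25 of no change for 59 of 65 members in U2-OS and 60 of 65 in SJSA-1 at 100 nM, as it did for 30.2% and 29.2% of all genes. At 400 nM it did so for 52 members in U2-OS, beside 14.7% of all genes. For SJSA-1 the count at this dose was 57 members, beside 21.4% of all genes. RPS2, of the 40S subunit, is an example. Its intensity was 10169.6 ± 73.8 with DMSO and 10584 ± 27.3 with 100 nM in U2-OS, and 12916 ± 286 and 13005 ± 188 in SJSA-1. RPL32, of the 60S subunit, stood at 10489 ± 74.3 and 10530.5 ± 29 in U2-OS and at 12360.4 ± 178 and 12417 ± 86.1 in SJSA-1. Both probe sets hold top ranks on every array (lowest percentile 99.998 for RPS2 and 99.996 for RPL32), and how far values at this end of a normalized array can move was not tested.

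The members were also set beside other genes with bright probe sets. Of genes with a mean of at least 4000, a limit chosen after seeing the data, 0 of 58 members passed at 100 nM in U2-OS by limma (5 at an unadjusted p under 0.05), against 15.2% of 79 other genes. In SJSA-1 13.8% of these members and 29.1% of the other genes passed at 100 nM, and 36.2% and 46.8% at 400 nM. By direction, 8 of the 58 members rose and 0 fell at 100 nM, against 16 and 7 of the 79 other genes. At 400 nM 21 members rose and 0 fell, against 23 and 14 of the others, with median log2 changes of 0.078 and 0.037. The difference between these shares was not tested.

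The 2 members that fell in U2-OS at 100 nM were RPL13 and RPL27A, both of the 60S subunit. Treated arrays wholly outside the range of DMSO were common among all genes at 100 and 400 nM. At 25 nM this held for 24.0% of all genes in U2-OS and 17.5% in SJSA-1, beside 11 and 2 of 65 members. At 100 nM it held for 65.5% and 54.7%, beside 25 and 13 members. At 400 nM it held for 81.4% and 62.3%, beside 42 and 22 members. RPL13 had intensities of 2909, 2836 and 2841 with DMSO in U2-OS, 2686, 2746 and 2818 at 25 nM, 2014, 2149.9 and 2149.8 at 100 nM and 1938, 2109 and 2227 at 400 nM. All arrays at 100 and 400 nM lay below all DMSO arrays, and the log2 changes were -0.44 ± 0.063 (SE; adjusted p = 1.54e-06) and -0.45 (adjusted p = 3.56e-07). In SJSA-1 RPL13 stood at 2487, 2916 and 2978 with DMSO and at 2369, 2353 and 2288 at 100 nM. These groups did not overlap either, and RPL13 was the 1 member that fell in both lines at the same dose (log2 change -0.25 ± 0.063, adjusted p = 0.00159). The effect of 100 nM did not pass as different between the lines (0.19, adjusted p = 0.162), and at 400 nM RPL13 did not pass in SJSA-1 (-0.089, adjusted p = 0.206).

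A second, brighter probe set that names RPL13 together with its pseudogene RPL13P12 moved less. It held 6921, 6612 and 6837 with DMSO in U2-OS and 6336, 6535 and 6453 at 100 nM. The arrays at 100 nM all lay below those with DMSO, but the change of -0.076 did not pass (adjusted p = 0.073), nor did -0.033 in SJSA-1 (adjusted p = 0.409). The signal of a shared probe set cannot be assigned to the gene or the pseudogene.

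RPL27A, a 60S protein whose introns hold SNORA3A and SNORA3B, is represented by a probe set much dimmer than that of any other member. In U2-OS it held 175, 180.3 and 168 with DMSO, 155, 162 and 151 at 25 nM, 129, 129.6 and 110.4 at 100 nM and 125, 142 and 137 at 400 nM. Each treated group lay below all DMSO arrays, and the falls passed at 100 nM (-0.46 ± 0.082, adjusted p = 4.55e-05) and 400 nM (-0.34, adjusted p = 0.000589). In SJSA-1 it held 154, 169 and 141 with DMSO, 104, 102 and 107 at 25 nM, 140.1, 153 and 135 at 100 nM and 182, 179.8 and 168 at 400 nM. There RPL27A was lowest at 25 nM, where it was the 1 member to fall (-0.50, adjusted p = 0.000108), and the 100 nM arrays overlapped DMSO (-0.10, adjusted p = 0.299).

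From 100 to 400 nM in SJSA-1 RPL27A was the 1 member that changed, with a rise of 0.28 (adjusted p = 0.0116; 26.5% of all genes changed; -0.18, not past the threshold, on the spike-ins). Without replicate 3 at 100 nM this step lost its call (adjusted p = 0.0528), and 4 members changed; without replicate 3 at 400 nM 6 did. RPL27A was also the 1 member whose response to 100 nM differed between the lines (0.35 ± 0.116, adjusted p = 0.0331), where 16.7% of all genes did. This call was lost on leaving out SJSA-1 100 nM replicate 2, SJSA-1 DMSO replicate 3, U2-OS 100 nM replicate 3, or U2-OS DMSO replicate 1 or 2 (adjusted p between 0.0658 and 0.122), and 3 members differed without SJSA-1 DMSO replicate 1. For 25 nM no member differed between the lines by limma (2 at an unadjusted p under 0.05), where 1.08% of all genes did.

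**Figure D3:**
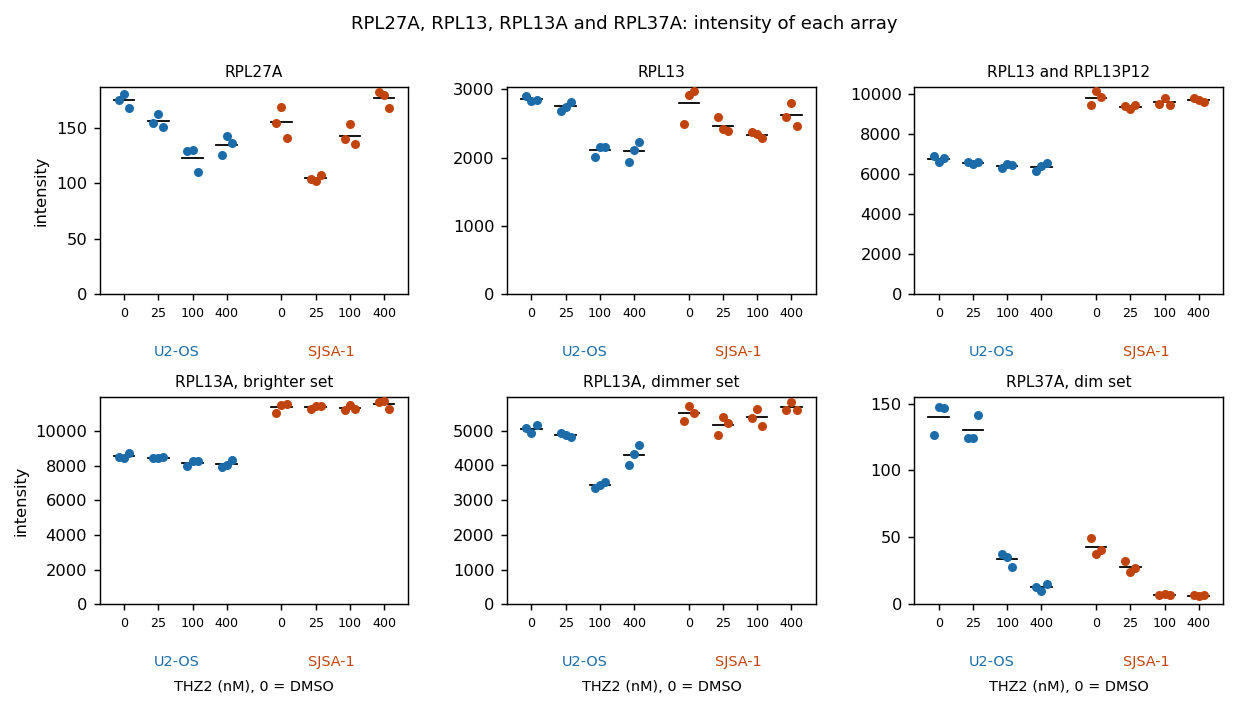
Intensity of each array (points; lines are group means of 3 arrays) by dose in both lines for probe sets of RPL27A, RPL13, RPL13 with RPL13P12, both sets of RPL13A, and the dim set of RPL37A. RPL13 lies lower at 100 nM than with DMSO in both lines, and the dim RPL37A set falls from 126 to 147 with DMSO to 28 to 37.8 at 100 nM in U2-OS.

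RPL13A, a 60S protein also known for a role outside the ribosome in silencing inflammatory mRNAs, has a brighter and a dimmer probe set that differed in U2-OS. The brighter set held 8503, 8456 and 8704 with DMSO, 7993, 8287 and 8263 at 100 nM and 7945, 8046 and 8348 at 400 nM. The change of -0.064 at 100 nM did not pass (adjusted p = 0.091), and that of -0.076 at 400 nM did (adjusted p = 0.0275), though not without 400 nM replicate 1 or 2 or DMSO replicate 3 (adjusted p between 0.0755 and 0.116). All arrays at both doses lay below those with DMSO. The dimmer set held 5082, 4929.9 and 5158 with DMSO, 4931, 4878 and 4811 at 25 nM, 3338, 3439 and 3533 at 100 nM and 3999.6, 4334 and 4594 at 400 nM. All treated arrays lay below DMSO, lowest at 100 nM, with changes of -0.56 ± 0.049 (adjusted p = 7.28e-10) and, at 400 nM, -0.23 (adjusted p = 0.00016).

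In SJSA-1 the dimmer RPL13A set held 5293, 5713 and 5518 with DMSO and 5367, 5634 and 5149 at 100 nM, which overlapped (-0.033, adjusted p = 0.585). The difference between the lines in this probe set was 0.52 ± 0.069 (adjusted p = 4.67e-06). The start of RPL13A shown above carries a tract of 7 pyrimidines, as that of RPL13 carries one of 6. Another, still brighter set that names RPL13A with its pseudogene RPL13AP5 changed by -0.026 at 100 nM (adjusted p = 0.462) and 0.038 at 400 nM (adjusted p = 0.223) in U2-OS, neither past the threshold.

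The largest falls at 400 nM in U2-OS were of RPL35A, RPL13, RPL27A, RPS6 and RPLP2. RPL35A, a 60S protein mutated in Diamond-Blackfan anaemia, held 1917, 1877 and 1792 with DMSO, 1901, 1856 and 1778 at 25 nM, 1616, 1829 and 1602 at 100 nM and 1038, 1086 and 1174 at 400 nM. Only the 400 nM arrays lay clear of all others (-0.75 ± 0.075, adjusted p = 9.07e-10), and those at 100 nM did not pass (-0.15, adjusted p = 0.112). A brighter set that RPL35A shares with ZNF391 changed by -0.0017 at 100 nM and -0.017 at 400 nM. In SJSA-1 RPL35A held 1675, 1898 and 1758 with DMSO and 1746, 1965 and 1872 at 100 nM, which overlapped.

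RPS6, the 40S protein that S6 kinase phosphorylates, held 5734, 5763 and 5586 with DMSO in U2-OS, 5445, 5730.1 and 5679 at 100 nM and 4821, 4866 and 4821 at 400 nM. Its 400 nM arrays lay below all others (-0.23 ± 0.040, adjusted p = 8.61e-06), and the 100 nM change did not pass (-0.020, adjusted p = 0.704). The call for RPS6 at 400 nM was lost with its probe sets averaged (-0.11, adjusted p = 0.133) and on the spike-ins (adjusted p = 0.0600). RPLP2, of the acidic stalk that recruits elongation factors, fell by 0.14 ± 0.033 on the log2 scale (adjusted p = 0.000419) and RPL29 by 0.12 ± 0.038 (adjusted p = 0.00814). In RPLP2 the sign turns to 0.089 when all probe sets of the gene are averaged. Of the 2 stalk members measured, neither passed at 100 nM in either line.

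Rises were small and spread over both subunits. In SJSA-1 at 100 nM 8 of 41 large-subunit and 3 of 24 small-subunit members rose, where 24.5% of all genes did, and at 400 nM 16 and 9, where 41.6% did. RPL36, the largest of the rises at 100 nM, held 1009.9, 1323 and 1261 with DMSO, 1448, 1468 and 1361 at 100 nM and 1448, 1698 and 1323 at 400 nM. Its 100 nM arrays lay above all DMSO arrays (0.26 ± 0.088, adjusted p = 0.0173; -0.27 on the spike-ins). RPL34 held 5634, 5221 and 5793 with DMSO, 5997, 5955 and 6123 at 100 nM and 6383, 7082 and 6165 at 400 nM. Both treated groups lay above DMSO, with changes of 0.12 ± 0.044 (adjusted p = 0.0277) and 0.24 (adjusted p = 5.78e-05), which turned to -0.41 and -0.85 on the spike-ins. At 100 nM neither call held in every setting. RPL36 was lost without 100 nM replicate 1 or 2 or DMSO replicate 1 (limma adjusted p between 0.052 and 0.174). RPL34 was lost without 100 nM replicate 1 or 3 or DMSO replicate 2 (between 0.0552 and 0.178). Both were lost in the fit to SJSA-1 alone (0.0595 and 0.133) and after quantile normalization (0.0689 and 0.135).

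RPL7 held 3468, 2721 and 3517 with DMSO in SJSA-1, 3717, 3259 and 4068 at 100 nM and 3984, 4068 and 4124 at 400 nM. The 100 nM arrays overlapped DMSO, though limma called them higher (0.19 ± 0.077, adjusted p = 0.043). That call was lost without DMSO replicate 2 (0.421) and without 100 nM replicate 1 or 3 (0.105 and 0.260). It was also lost after quantile normalization (0.137), in the fit to SJSA-1 alone (0.120) and with no filter on dim genes (0.0510). The 400 nM arrays lay above DMSO (0.34 ± 0.077, adjusted p = 0.00053, and -0.75 on the spike-ins). In U2-OS at 400 nM, the group normalized apart, RPL26 went from 2946, 2962 and 2906 with DMSO to 3651, 3562 and 3575 (0.29 ± 0.072, adjusted p = 0.000813; 0.14, adjusted p = 0.0713, after quantile normalization). RPL39, at the peptide exit tunnel, and RPS20, of the head of the 40S subunit, each rose by 0.24 there (adjusted p = 6.1e-06 and 0.000213). On the spike-ins these 3 values were -0.13, -0.18 and -0.18.

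Taking every probe set of the family rather than 1 per gene gave more calls. At 100 nM in U2-OS 8 of 170 member probe sets rose and 12 fell, where 17.6% of all probe sets rose and 18.9% fell. In SJSA-1 50 rose and 11 fell at 100 nM, against 25.2% and 22.5% of all, and 87 rose and 7 fell at 400 nM, against 36.0% and 23.4%. In U2-OS at 400 nM 66 rose and 26 fell, against 48.4% and 22.7%. In 17 member probe sets the effect of 100 nM differed between the lines, where 15.5% of all probe sets did.

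Divided by mean intensity, at limits chosen after seeing the data, 30 member probe sets lay under 100, 20 between 100 and 1000 and 120 at 1000 or more. In SJSA-1 at 100 nM 14 of the 30 dimmest rose and 6 fell, 13 of the middle 20 rose and 2 fell, and 23 of the 120 brightest rose and 3 fell. Among other probe sets 22.3% rose and 20.1% fell in the dimmest band, 31.3% and 29.7% in the middle one and 31.2% and 12.8% in the brightest. In the middle band the median log2 change was 0.45 for the members and 0.067 for the others. In U2-OS the same bands gave 3 and 6, 4 and 4, and 1 and 2 members risen and fallen, beside 17.99% and 16.2%, 16.98% and 26.5%, and 16.99% and 10.9% of other probe sets. Which part or form of a transcript each set reads was not tested.

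**Figure D4:**
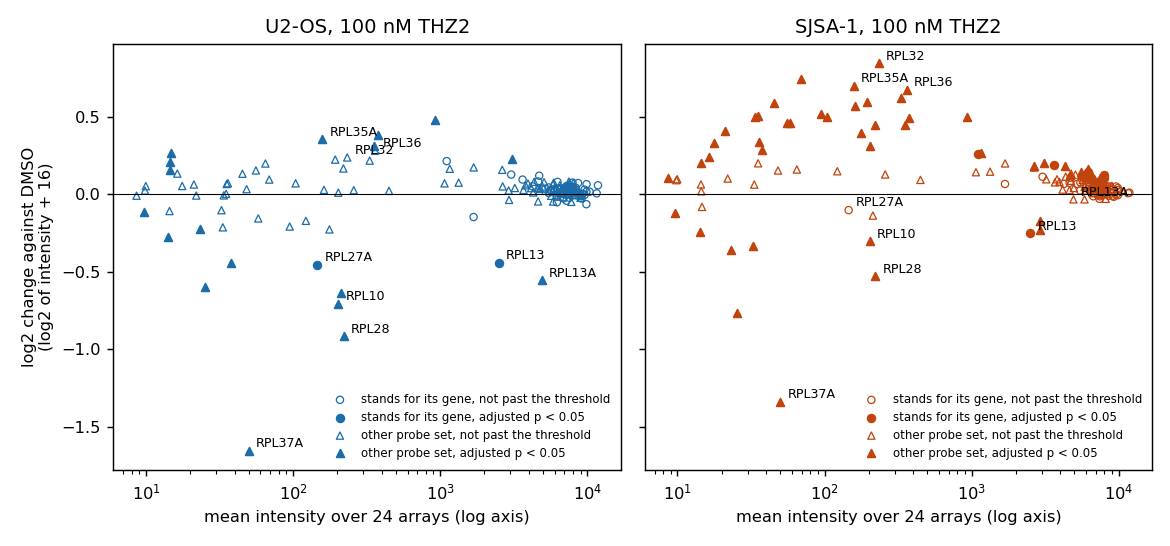
Mean intensity of each member probe set (log axis) against its log2 change at 100 nM in U2-OS and SJSA-1; circles stand for the gene in the counts and triangles are its other probe sets. Most sets above 4000 lie near 0, apart from the dimmer RPL13A set in U2-OS at -0.56, and the set farthest below 0 in both lines is the dim one of RPL37A.

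The dim set of RPL37A had the lowest log2 change of all member probe sets at 100 and 400 nM in both lines. It held 126, 147 and 146 with DMSO in U2-OS, 124, 124 and 141 at 25 nM, 37.8, 35 and 28 at 100 nM and 13.2, 9.95 and 15.3 at 400 nM. The 100 nM arrays lay far below DMSO and the 400 nM arrays lower still (-1.65 ± 0.091, adjusted p = 9.95e-14, and -2.44). In SJSA-1 it held 49.5, 37.3 and 40.8 with DMSO, 32, 24.3 and 26.9 at 25 nM and 6.87, 7.62 and 6.59 at 100 nM. These last arrays lay under the filter of 12.73, so the set was at least 3.34-fold lower there. The bright set of the same 60S gene stood at 9213 ± 7.19 with DMSO and 9318 ± 77.1 at 100 nM in U2-OS, and at 11427 ± 238 and 11559 ± 167 in SJSA-1, and passed in neither. Averaging the gene's probe sets gives -0.27 in U2-OS (adjusted p = 0.000612).

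Dim sets of RPL10 and RPL28, both of the 60S subunit, also fell in both lines. The RPL10 set held 363, 376 and 369 with DMSO, 327, 354 and 349 at 25 nM, 197, 234 and 231 at 100 nM and 151, 187 and 194 at 400 nM in U2-OS, so all treated arrays lay below DMSO (-0.71 ± 0.095 at 100 nM, adjusted p = 1.08e-06). In SJSA-1 it held 149, 156 and 161 with DMSO and 120.3, 133 and 116 at 100 nM (-0.30, adjusted p = 0.0102). The RPL28 set held 236, 217 and 236 with DMSO and 97.9, 120.5 and 125 at 100 nM in U2-OS (-0.92 ± 0.100, adjusted p = 3.71e-08), and 290.0, 377 and 326 against 215, 239 and 217 in SJSA-1 (-0.53, adjusted p = 0.000105). None of these groups overlapped, which was common among all genes, by the shares given above.

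Other dim sets rose. A set of RPL31 held 53.1, 58.5 and 51.3 with DMSO in SJSA-1, 46.2, 43.1 and 38.6 at 25 nM, 77.7, 72.5 and 91.8 at 100 nM and 128, 111 and 129.8 at 400 nM. It was below DMSO at 25 nM and above it at 100 and 400 nM (0.98 ± 0.082 at 400 nM, adjusted p = 1.14e-10). Sets of 1 gene passed in opposite directions for RPL28 at 100 nM in U2-OS, for RPL10 and RPL37A at 100 and 400 nM in SJSA-1, and for 10 members at 400 nM in U2-OS. The share of all genes with sets in opposite directions was not counted, so this is not read as a trait of the members.

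Some small nucleolar RNAs encoded in members are named by probe sets of the array, alone or together with the host gene. By the RefSeq spans 23 members host 46 of these RNAs, and 12 of them, in 10 hosts, are named by a probe set. Where a set also names the host, as for RPL37 with SNORD72 (mean 9586), its signal cannot be assigned to either RNA. Not every such set rose at each dose. In U2-OS that of RPL4 with SNORD16 changed by 0.26 at 100 nM and -0.40 at 400 nM (limma adjusted p = 0.017 and 0.000144). That of RPLP2 with SNORA52 changed by 0.28 and -0.25 (0.000495 and 0.000424). In SJSA-1 the changes were 0.78 and 0.27 for the first, and 0.078 and 0.068 for the second. The 12 RNAs were not counted by direction. SNORA65, which lies within RPL12, held 16.5, 13.5 and 12.1 with DMSO in U2-OS, 15, 14.6 and 15.9 at 25 nM, 81.4, 114 and 81.9 at 100 nM and 111, 135 and 132 at 400 nM. In SJSA-1 it held 16.4, 27.1 and 29.9 with DMSO, 43.1, 51.3 and 55.7 at 25 nM, 416, 410.1 and 396 at 100 nM and 234, 329 and 170.1 at 400 nM. All arrays at 100 and 400 nM lay above DMSO in both lines, and in SJSA-1 those at 25 nM as well (1.84 ± 0.153 and 3.40 ± 0.153 at 100 nM).

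The change of the host was smaller. RPL12, a 60S protein at the base of the stalk, held 6847, 6903 and 6859 with DMSO and 7102, 7287 and 7324 at 100 nM in U2-OS (0.075, adjusted p = 0.0813). In SJSA-1 it held 8249, 8539.9 and 8481 with DMSO and 9027, 9410.1 and 8780.0 at 100 nM, all above DMSO (0.11 ± 0.035, adjusted p = 0.0129; -0.43 on the spike-ins). The call was lost without replicate 2 at 100 nM or DMSO replicate 1 of SJSA-1 (limma adjusted p = 0.0784 and 0.0529). It was also lost after quantile normalization (0.0600) and in the fit to SJSA-1 alone (0.0949).

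SNORA3B within RPL27A is read by a brighter and a dimmer probe set. The dimmer held 70.6, 78.2 and 67.9 with DMSO in U2-OS, 154, 179 and 188 at 100 nM and 69.8, 79.7 and 79.8 at 400 nM, so that it was high at 100 nM and overlapped DMSO at 400 nM. In SJSA-1 it held 24.6, 38.1 and 32.4 with DMSO, 102, 108 and 98.4 at 25 nM, 179, 201 and 182 at 100 nM and 56.5, 54.6 and 46.9 at 400 nM. The changes were 1.10 ± 0.098 (adjusted p = 8.69e-10) in U2-OS and 2.10 (adjusted p = 3.01e-15) in SJSA-1 at 100 nM, and 0.067 and 0.53 at 400 nM. The brighter set held 84.4, 92.4 and 81.7 with DMSO, 153, 147 and 162 at 100 nM and 119.99, 117 and 118 at 400 nM in U2-OS, so that it stayed above DMSO at 400 nM (0.39 ± 0.088, adjusted p = 0.000295), unlike the dimmer set. RPL27A itself, given above, was low at 100 nM in U2-OS and at 25 nM in SJSA-1.

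A probe set of RPL32 that carries the sequence record of SNORA7B held 101, 108 and 93 with DMSO and 362, 422 and 437 at 400 nM in U2-OS (1.85 ± 0.110, adjusted p = 1.23e-13), and 159.8, 204 and 229 with DMSO and 362, 388 and 343 at 100 nM in SJSA-1 (0.84 ± 0.110, adjusted p = 5.22e-07). By the RefSeq spans RPL32 holds SNORA7A and not SNORA7B, so this set is annotated to the member but carries the record of an RNA of another locus. The bright set of RPL32 stood near its DMSO level at 100 nM in SJSA-1, as given above. At 400 nM in U2-OS it stood at 10996 ± 36.9, against 10489 ± 74.3 with DMSO, and all its arrays lay above DMSO. Whether the sets with small RNA records read the mature small RNA, an unspliced intron or a longer transcript was not tested. The 3 RNAs shown by array were chosen after their values were seen.

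**Figure D5:**
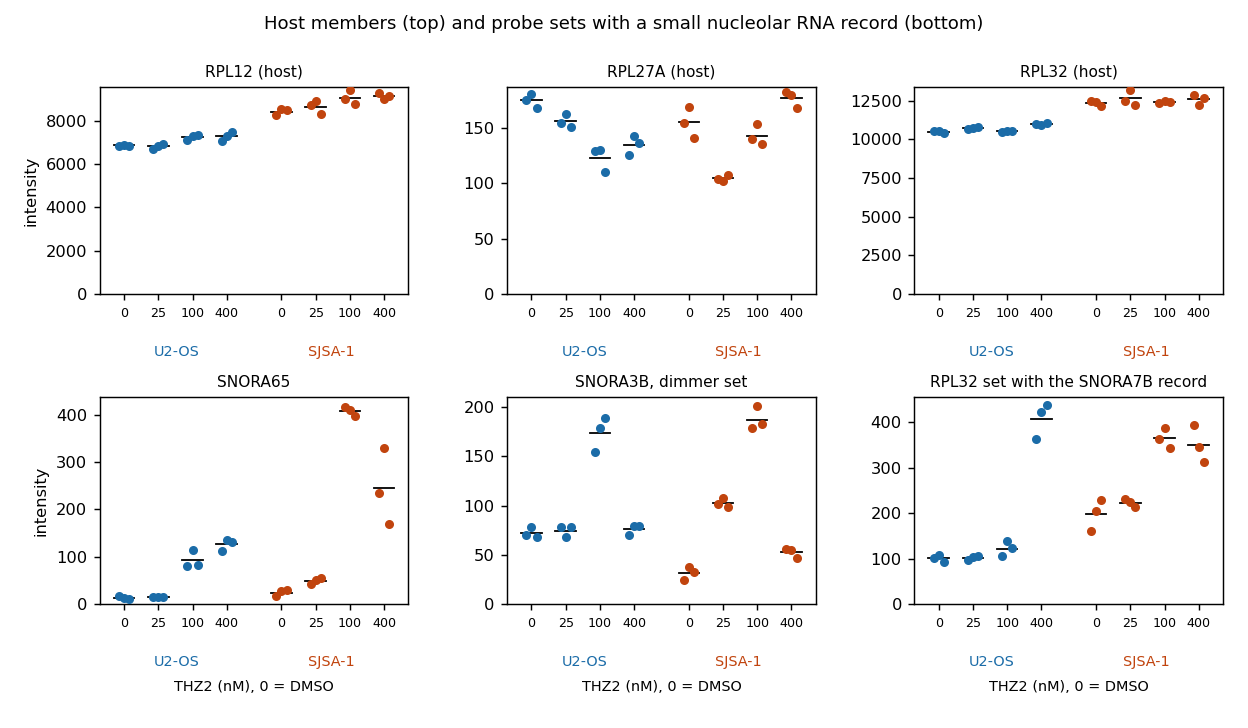
Intensity of each array (points; lines are group means of 3 arrays) by dose for the host genes RPL12, RPL27A and RPL32 (top) and, below them, SNORA65 (within RPL12), the dimmer set of SNORA3B (within RPL27A) and the RPL32 set with the SNORA7B record (bottom). In SJSA-1 SNORA65 stands at 396 to 416 with 100 nM and at 16.4 to 29.9 with DMSO.

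Genes that act on ribosomal protein synthesis were read beside the members. Of 21 genes of mTOR signalling and of ribosomal protein promoters, 1 rose and 9 fell at 100 nM in U2-OS, and 6 rose and 10 fell in SJSA-1. For these and the lists that follow, the shares over all genes at 100 nM were 19.8% risen and 22.1% fallen in U2-OS, and 24.5% and 24.9% in SJSA-1. RPTOR, the scaffold of mTOR complex 1, changed by -1.22 and -1.66 in the 2 lines, and SP1, a factor of GC-rich promoters, by -1.08 and -1.596. TBPL1, a TBP relative that acts at TOP promoters in flies, changed by -1.40 and -0.96, and NRF1 by -0.57 and -1.28. TSC1, a brake on mTOR complex 1, rose by 0.43 and 0.80, but passed in neither line on the spike-ins (adjusted p = 0.998 and 0.194) or with its probe sets averaged. MYC stood at 792 with DMSO and 429 with 100 nM in U2-OS (-0.86), and at 33.5 and 79.5 in SJSA-1 (0.95; 0.48, adjusted p = 0.0507, on the spike-ins).

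Of 14 genes that carry and place ribosomal proteins, 3 fell and none rose at 100 nM in U2-OS (RRS1, GRWD1 and RPF2), and 3 rose and 6 fell in SJSA-1. RRS1, which brings the 5S particle to the large subunit, had means of 1030 with DMSO and 474 with 100 nM in U2-OS (-1.09), and of 1033, 398 and, at 400 nM, 151 in SJSA-1 (-1.35 and -2.66). GRWD1, a chaperone of RPL3, changed by -0.56 and -0.98. Those that rose in SJSA-1 were TSR2, IPO5 and TNPO1, and IPO5, an importer, stood at 0.29 there and at -0.24 on the spike-ins. The IPO5 call was lost without 100 nM replicate 2 or 3 or DMSO replicate 2 or 3 (adjusted p between 0.0503 and 0.132), after quantile normalization (0.0539) and in the fit to SJSA-1 alone (0.0831).

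Other genes whose mRNAs begin with a TOP tract were also called in few cases at 100 nM: 0 of 21 passed in U2-OS by limma (0 at an unadjusted p under 0.05), and 2 rose and 1 fell (SNHG1) in SJSA-1. The risen ones were NACA, of the nascent chain complex at the exit tunnel, from 3463 to 4420 (0.36; -0.18 on the spike-ins), and EIF3E, of initiation factor 3 (0.33; -0.20 on the spike-ins). Of 9 paralogs and relatives of members, 3 fell in U2-OS and 4 fell in SJSA-1 at 100 nM, with 2 (RPL3L and RPL10L) risen there. RPL7L1 went from 1380 to 993 and from 855 to 563 (-0.47 and -0.59), RPL36AL changed by -0.31 and -0.35 and RPL39L by -0.39 and -0.30, while RPL22L1 changed by -0.33 in SJSA-1. In SJSA-1 the RPL39L call was lost without 100 nM replicate 1 or 2 or DMSO replicate 3 (adjusted p between 0.0532 and 0.241) and with median centring (0.0820), the RPL22L1 call without 100 nM replicate 1 (0.0501), and both in the fit to that line alone (0.0975 and 0.0577).

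Of 11 genes of ribosome quality control and ribotoxic stress, 1 rose (HBS1L) and 3 fell (LTN1, ASCC3 and EIF2AK4) in U2-OS and 2 rose (HBS1L and ASCC2) and 4 fell in SJSA-1 at 100 nM. PELO, which splits stalled ribosomes, changed by -0.38 at 100 nM and -2.77 at 400 nM in SJSA-1, from 373 to 41.3. Its partner HBS1L rose by 0.54 in SJSA-1 at 100 nM (adjusted p = 0.98 on the spike-ins), and LTN1, the ubiquitin ligase of stalled chains, changed by -0.94 ± 0.164 in U2-OS.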

How the data were processed

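The authors deposited a linear intensity for each probe set on each array; MAS5 and RMA are named per the submitters' processing notes, without saying which made these values, and versions are not given in the sources used here. Gene names came from GEO's platform annotation, in which 44994 of 49372 probe sets name 1 gene, 1832 name several and 79 are controls. Of the 65 members all have an entry in the RefSeq table of GRCh38.p14, from which start sequences and the spans of host genes were taken.

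Intensities were put on a log2 scale after adding 16. Where a gene had several probe sets, the one with the highest mean stood for it. Genes needed a mean of at least 12.73, the 30th percentile of the deposited values, in 1 group or more, which left 16173 of 18132 genes and, taken singly, 37950 probe sets. In limma 3.58.1 (R 4.3.3) a linear model held a mean for each of 8 groups over the 24 arrays (16 residual degrees of freedom), and variances were moderated with a trend on intensity. Adjusted p-values are by the Benjamini-Hochberg method over all genes (or all probe sets) within a comparison, with a threshold of 0.05, and errors of log2 changes are standard errors of this fit. Where a group lay under the filter, a lower bound of the fold was taken with each array of the dimmer group set to at least 12.73. The number of arrays limits the precision.

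The members and lists were chosen with earlier results of these data known. Genes named are the best known members, the largest called changes at each dose whose treated arrays lie outside the DMSO range, members called in both lines, the brightest and dimmest, members with probe sets in opposite directions, and up to 2 genes in each direction from each other list; names outside this rule were chosen after their values were seen. Alternatives were other scalings (array median, quantiles, spike-ins), other pseudocounts and filters, averaging the probe sets of each gene, every probe set by itself, the arrays of 1 line only, a replicate block and leaving out each array.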

Additional observations from a re-analysis of the deposited data

Results flagged for a closer look

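RPL27A differed between the lines in its response to 100 nM THZ2, by 0.35 on the log2 scale (SJSA-1 minus U2-OS, limma). Of the other member probe sets 16 differed as well, by the same test across all probe sets. With that of RPL27A they make 17 of 170, which is under the share of all probe sets that differed (15.5%). Of the 16, 15 were higher in SJSA-1: the differences were 0.27, 0.40 and 0.50 in sets of RPL10, 0.62 and 0.61 in sets of RPL31, 0.50 and 0.51 in sets of RPS15A, and 0.72 and 0.73 in sets of RPS28. Single sets of RPL13A (0.52), RPL32 (0.61), RPL37 (0.65), RPS2 (0.54), RPS20 (0.46) and RPS29 (0.43) also differed, and the set of RPL32 carries the record of SNORA7B and that of RPS2 the record of SNORA10. A set of RPS6 differed the other way (-0.35). The second of the RPS28 sets held 57.1, 47.3 and 58.1 with DMSO and 34.7, 36.9 and 35 at 100 nM in U2-OS, and 24.3, 30.9 and 25.5 against 39.7, 38.6 and 30.7 in SJSA-1, so that it lay below DMSO in the first line and, apart from 1 array, above it in the second. Each response is taken within a line, so these differences set no level of a line against the other.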

How the results depend on the processing

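Counts of members past the threshold are given here for each alternative that moved them by more than 1.5 times. Shares of all genes called are given above for the main fit and for single probe sets only. Counts in the other settings are therefore not read as a trait of the members. Centred on the spike-ins, the risen counts became 0 in SJSA-1 at 100 and 400 nM and in U2-OS at 400 nM, the fallen counts 2 in SJSA-1 at 100 nM, 65 at 400 nM, 0 at 25 nM and 3 in U2-OS at 400 nM, and the step and the line difference 0 each. Centred on their median, arrays gave 47, 63, 2 and 3 risen (SJSA-1 100 and 400 nM, U2-OS 100 and 400 nM), 2 fallen in SJSA-1 at 25 nM and 17 in U2-OS at 400 nM, 8 in the step and 3 in the line difference. Quantile normalization gave 4, 11, 1 and 4 risen in that order, 1 fallen in SJSA-1 at 400 nM and 14 in U2-OS at 400 nM, and 2 in the step. With every probe set by itself the risen counts were 50, 87, 8 and 66, the fallen counts 11, 7, 12 and 26 with 5 in SJSA-1 at 25 nM, the step 11 and the line difference 17. Averaging probe sets by gene gave 25 and 40 risen in SJSA-1 and 4 in U2-OS at 100 nM, 2, 1 and 6 fallen in SJSA-1 at 100 and 400 nM and U2-OS at 100 nM, 5 in the step and 6 in the line difference. Fits to 1 line gave 1 and 10 risen in SJSA-1, 10 risen and 4 fallen in U2-OS at 100 nM, and 0 in the step. The 50th-percentile filter gave 5 in the step, 2 fallen in SJSA-1 at 25 nM and 2 risen in U2-OS at 100 nM, and a pseudocount of 64 gave 1 risen there. A replicate block gave 2 in the step and 1 risen in U2-OS at 100 nM and moved no other count by more than 1.5 times; deviations of same-numbered arrays correlated at -0.63 to 0.42 (median 0.068) in SJSA-1 and -0.082 to 0.33 (median 0.12) in U2-OS, against medians of 0.027 and -0.075 for arrays of different numbers, and since not every pair lay above 0.1 the numbers were not taken as pairs. Leaving out 1 array gave 1 to 6 in the step, 0 to 3 in the line difference, 4 to 10 and 13 to 31 risen in SJSA-1 at 100 and 400 nM, 0 to 2 risen in U2-OS at 100 nM, and fallen counts of 1 to 3 (SJSA-1 25 nM) and 0 to 1 (SJSA-1 400 nM). On the spike-ins the log2 changes at 100 nM in SJSA-1 turned to -0.43 for RPL12, -0.39 for RPL14, -0.41 for RPL34, -0.27 for RPL36, -0.34 for RPL7, -0.41 for RPS24, -0.20 for EIF3E, -0.24 for IPO5 and -0.18 for NACA. At 400 nM they turned to -0.74 for RPL27A, -0.85 for RPL34, -0.75 for RPL36 and -0.75 for RPL7 in SJSA-1, and to -0.13 for RPL26, -0.26 for RPL34, -0.18 for RPL39 and -0.18 for RPS20 in U2-OS, and the RPL27A step turned to -0.18. A dim RPL35A set turned to -0.11 at 100 nM in U2-OS. Averaging probe sets by gene turned RPL37A to -0.27 at 100 nM and RPLP2 to 0.089 at 400 nM in U2-OS. The cause was not tested, other than that fits to 1 line use fewer arrays.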
